A study of Mus musculus with 2 samples.

Results

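The genes described here mark position along the gut. They are 9 genes taken by symbol from 22350 symbols with a value: the posterior homeobox genes Hoxa13, Hoxb13, Hoxd13 and Hoxd10, the caudal homeobox genes Cdx1 and Cdx2, the zinc finger factors Gata4 and Gata6, and Fabp6, the bile acid binding protein of ileal enterocytes. All 9 had a value in both libraries, and 7 reached a mean of at least 1 FPKM (a fragment density per kilobase of transcript and per mapped total). Messenger RNA came from colon epithelial cells of Pkm2-/- mice and of wild type (WT) mice, all C57BL/6 and all given 2.5% dextran sulfate sodium (DSS), which damages the lining of the large bowel, for 3 days. Both groups thus carried the injury, and untreated mice were not analysed here. Each genotype had 1 library, and the labels do not say how many mice entered it, how old they were, how the Pkm2 allele was made or which stretch of the colon was taken.

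Along the gut, regional identity is laid down by homeobox genes that stay on in the adult epithelium. Hox genes lie in 4 clusters, and the order of the genes within a cluster follows the head-to-tail order in which they are used, with the group 13 genes at the hindgut end. Cdx2 specifies intestinal against stomach epithelium and works throughout the intestine together with Cdx1. Gata4 is a factor of the proximal small intestine and is shut off towards the ileum and in the colon, whereas Gata6 is used along the whole intestine. Fabp6 carries bile acids inside enterocytes of the terminal ileum, where they are taken up, and is a known target of the bile acid receptor Nr1h4 (farnesoid X receptor).

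Read from the smallest values, depth was about 21200000 fragments in the Pkm2-/- library and 18800000 in the WT library, which makes 1 FPKM of a 2 kb transcript worth about 42.4 fragments in Pkm2-/- and 37.5 in WT. Since a genotype had no second library, nothing could be tested, and every difference describes these 2 libraries. Intervals are 95% counting intervals and leave out variation between mice and between preparations. The targeted gene Pkm stood at 86.2 FPKM in the Pkm2-/- library and 281 FPKM in the WT library, a gene-level value that covers both of its isoforms and so does not check Pkm2 alone. Over the 12429 genes that averaged 1 FPKM or more, the median log2 ratio of Pkm2-/- over WT, with 1 FPKM added to each value, was 0.06 and 90.2% of genes lay within 1.5-fold. On that scale 1.42% of genes were at least 2-fold higher in Pkm2-/- and 1.90% at least 2-fold lower, together 3.31%. Every count of genes at least 2-fold apart below is on that scale, whereas a fold beside an interval is the plain FPKM ratio. Of the 7 measured position genes, 1 was at least 2-fold higher and 2 were at least 2-fold lower. These were Fabp6 above, and Hoxb13 and Hoxd13 below.

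The colon label was checked against epithelial, colon and stomach genes. The epithelial markers Epcam, a surface adhesion molecule, and Krt8, a keratin, were abundant, Epcam at 712 FPKM in Pkm2-/- and 584 FPKM in WT, and Krt8 at 2164 FPKM in Pkm2-/- and 1814 FPKM in WT. Car1, a carbonic anhydrase of the colon epithelium, was abundant as well, with its values given among the colon genes. Of 13 genes of the stomach and other endoderm organs, 8 had no entry in either library, among them the stomach factor Sox2 and the gastric products Gkn1 and Muc5ac, and no other exceeded 2.57 FPKM in Pkm2-/- or 3.04 FPKM in WT. A missing entry does not show that a gene was silent: Txnrd1 and mt-Co1, which nearly all cells use, were missing from both libraries.

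**Figure D1:**
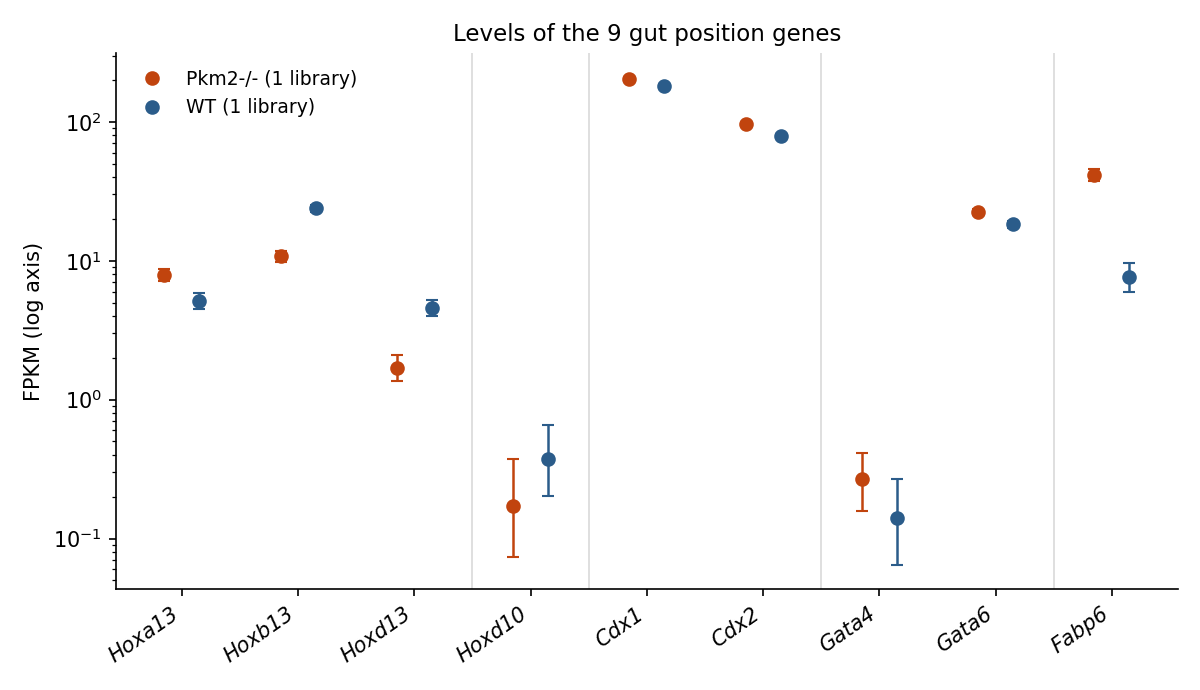
FPKM on a log axis of the 9 gut position genes, with Pkm2-/- left and WT right for each gene, 1 library each, and 95% counting intervals as bars. Hoxb13 and Hoxd13 sit lower in Pkm2-/-, Hoxa13 and Fabp6 sit higher, and Cdx1, Cdx2 and Gata6 differ by at most 1.24-fold.

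The 3 group 13 genes present in the data are transcription factors of the hindgut end, and they did not move together. Hoxb13 (ENSMUSG00000049604, chromosome 11, 96194316 to 96197447 on GRCm38, plus strand, 2 exons) stood at 10.7 FPKM in Pkm2-/- and 23.8 FPKM in WT. It was 2.22-fold lower in Pkm2-/- (interval 1.99 to 2.48, about 502 fragments in Pkm2-/- and 987 in WT). Hoxd13 (ENSMUSG00000001819, chromosome 2, 74668310 to 74671599, plus strand, 2 exons) stood at 1.69 FPKM in Pkm2-/- and 4.56 FPKM in WT, 2.70-fold lower in Pkm2-/- (interval 2.101 to 3.503, about 89 fragments in Pkm2-/- and 213 in WT). By log2 ratio, Hoxb13 was number 195 and Hoxd13 number 213 from the lowest of the 12429 genes. With 5 FPKM added in place of 1, neither Hoxb13 (-0.87) nor Hoxd13 (-0.52) was 2-fold lower.

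Hoxa13, the third gene of the group, went the other way. Hoxa13 (ENSMUSG00000038203, chromosome 6, 52257694 to 52260880, minus strand) stood at 7.89 FPKM in Pkm2-/- and 5.16 FPKM in WT, 1.53-fold higher in Pkm2-/- (interval 1.298 to 1.81). The 3 genes together summed to 20.3 FPKM in Pkm2-/- and 33.6 FPKM in WT. Hoxb13 made up 52.8% of that sum in Pkm2-/- and 71.0% in WT, Hoxa13 38.8% in Pkm2-/- and 15.4% in WT, and Hoxd13 8.31% in Pkm2-/- and 13.6% in WT. Within a library, the level of Hoxb13 was 1.36 times that of Hoxa13 in Pkm2-/- and 4.62 times that of Hoxa13 in WT, so the excess of Hoxb13 over its paralogue was smaller in Pkm2-/-.

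Hoxd10 was the lowest Hox gene of the 9. Hoxd10 (ENSMUSG00000050368, chromosome 2, 74691924 to 74695105, plus strand) stood at 0.171 FPKM in Pkm2-/- and 0.376 FPKM in WT, which is about 7 fragments in Pkm2-/- and 13 in WT. The ratio, 2.199-fold lower in Pkm2-/-, had an interval of 0.778 to 6.21 and a difference was not detectable at this depth. The files place Hoxd10 in 1 locus with Hoxd11 and Gm28309, so the split of fragments among these 3 genes is uncertain.

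The promoter letters of Hoxa13 and Hoxd13 are shown because these paralogues differed in opposite directions. They are the 250 bases before the RefSeq start site on GRCm38.p6, for Hoxa13 chr6:52260881-52261130 on the minus strand and for Hoxd13 chr2:74667975-74668224 on the plus strand, printed 5′ to 3′. Capitals mark TTTAT on either strand, the core that Cdx factors and posterior Hox proteins recognise. Both windows were rich in G and C, with 80.0% in Hoxa13 and 74.4% in Hoxd13.
Hoxa13: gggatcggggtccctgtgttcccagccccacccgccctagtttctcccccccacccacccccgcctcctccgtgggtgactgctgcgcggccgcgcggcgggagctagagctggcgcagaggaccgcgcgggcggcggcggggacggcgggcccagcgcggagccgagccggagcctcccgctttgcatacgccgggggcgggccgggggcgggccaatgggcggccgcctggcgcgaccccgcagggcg
Hoxd13: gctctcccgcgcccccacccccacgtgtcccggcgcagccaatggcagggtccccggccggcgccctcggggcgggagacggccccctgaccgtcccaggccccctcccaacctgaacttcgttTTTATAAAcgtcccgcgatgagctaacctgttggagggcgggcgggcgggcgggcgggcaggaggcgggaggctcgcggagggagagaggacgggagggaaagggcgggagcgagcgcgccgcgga
The Hoxd13 window held TTTAT on the plus strand from 126 bases before the start site and, overlapping it, on the minus strand from 123 bases before. The Hoxa13 window held none. TTTAT on either strand occurs in 37.3% of all 32851 promoter windows of this length in the table, and the letters GATAA, a core recognised by Gata factors, occur in 22.6% of them and in neither window here. Of the 9 genes, 5 have a promoter entry in that table.

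The other Hox genes were then set beside the group 13 genes, because the clusters hold the rest of the positional code. Of 39 Hox genes, 32 had a value in at least 1 library and 21 had a mean of at least 1 FPKM. Their values summed to 240.02 FPKM in Pkm2-/- and 244 FPKM in WT, so the sum over the family was nearly equal. The highest of the other 35 genes were Hoxb6 (47.5 FPKM in Pkm2-/- and 44.1 FPKM in WT) and Hoxb9 (36.8 FPKM in Pkm2-/- and 41.1 FPKM in WT). None of the 9 genes of cluster C had an entry in Pkm2-/-, and 3 had one in WT, with a sum of 0.158 FPKM.

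**Figure D2:**
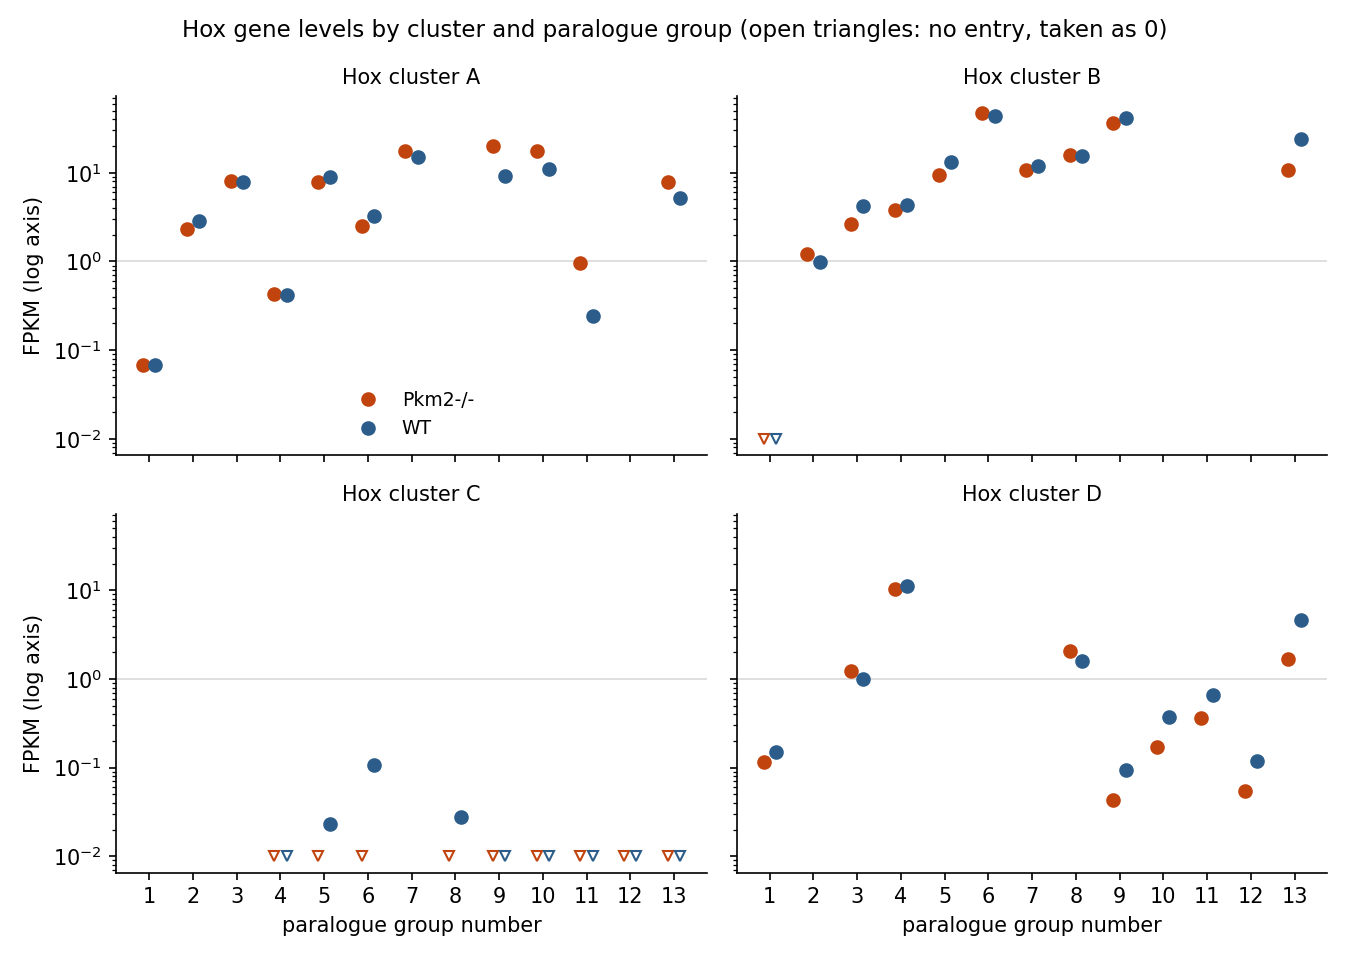
FPKM on a log axis of the 39 Hox genes against paralogue group number, 1 panel per cluster, with Pkm2-/- drawn left of WT and open triangles for genes without an entry. Cluster B holds the highest levels and cluster C has few entries. The libraries separate at groups 9 to 13 of cluster A and at Hoxb13, Hoxd11 and Hoxd13. Hoxd9, Hoxd10 and Hoxd12 stand lower in Pkm2-/- but rest on few fragments.

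The sums over groups 1 to 8 lay close in the libraries for clusters A, B and D, although single genes within them did not. Groups 1 to 8 of cluster A summed to 38.8 FPKM in Pkm2-/- and 38.6 FPKM in WT. The same groups of cluster B summed to 91.3 FPKM in Pkm2-/- and 94.4 FPKM in WT, and those of cluster D to 13.6 FPKM in Pkm2-/- and 14.03 FPKM in WT. Within these groups Hoxb5 stood lower in Pkm2-/-, at 9.39 FPKM against 13.2 FPKM in WT (1.41-fold, interval 1.26 to 1.58), and so did Hoxb3, at 2.65 FPKM in Pkm2-/- and 4.17 FPKM in WT (1.58-fold, interval 1.297 to 1.92). Hoxa7 stood higher, at 17.6 FPKM in Pkm2-/- and 15.2 FPKM in WT (1.16-fold, interval 1.04 to 1.29), and so did Hoxb6 (1.08-fold, interval 1.01 to 1.15). Hoxa5 was at 7.82 FPKM in Pkm2-/- and 8.96 FPKM in WT. Hoxa7 and Hoxa5 share 1 locus of 11 genes in the files, so their split is uncertain. The same limit holds for Hoxb5 and Hoxb6, in a locus of 3 genes, and for Hoxb3, in a locus of 4.

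All 4 genes of groups 9 to 13 in cluster A had higher values in Pkm2-/-, with counting intervals that excluded 1. They summed to 46.4 FPKM in Pkm2-/- and 25.6 FPKM in WT. Hoxa11 lies in a locus of 5 genes in the files, so its split, and with it its interval, is uncertain. Hoxa9, known in blood cells as well as in the hindgut, stood at 19.9 FPKM in Pkm2-/- and 9.30 FPKM in WT, 2.14-fold higher in Pkm2-/- (interval 1.94 to 2.36). It was the only other Hox gene with a mean of at least 1 FPKM that was at least 2-fold apart. Hoxa10 stood at 17.7 FPKM in Pkm2-/- and 10.9 FPKM in WT, 1.62-fold higher in Pkm2-/- (interval 1.46 to 1.81). Hoxa11, named after its values were seen, stood at 0.961 FPKM in Pkm2-/- and 0.240 FPKM in WT, about 47 fragments in Pkm2-/- and 10 in WT. Its antisense partner Hoxa11os stood at 34.6 FPKM in Pkm2-/- and 51.8 FPKM in WT, in the other direction. Whether the counting used strand is not given in the sources used here, so fragments of Hoxa11 and Hoxa11os cannot be told apart.

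All 5 genes of groups 9 to 13 in cluster D were lower in Pkm2-/-, by 1.81-fold to 2.70-fold, and summed to 2.32 FPKM in Pkm2-/- and 5.81 FPKM in WT. Of these, Hoxd13 alone had a mean of at least 1 FPKM. Besides it only Hoxd11 had an interval that excluded 1, at 0.367 FPKM in Pkm2-/- and 0.663 FPKM in WT (about 26 fragments in Pkm2-/- and 42 in WT). Hoxd11 was 1.81-fold lower in Pkm2-/- (interval 1.09 to 3.10), and its split from Hoxd10 and Gm28309, in the same locus, is uncertain. Hoxd9 and Hoxd12, also named after their values were seen, rested on at most 6 fragments in a library, and no difference was detectable for them at this depth. In cluster B the neighbouring gene Hoxb9 was close in both libraries, 1.12-fold lower in Pkm2-/- (interval 1.05 to 1.19), whereas Hoxb13 was 2.22-fold lower. Hoxb7, at 10.8 FPKM in Pkm2-/- and 11.9 FPKM in WT, Hoxb8, at 16.0 FPKM in Pkm2-/- and 15.7 FPKM in WT, and Hoxd4, at 10.2 FPKM in Pkm2-/- and 11.3 FPKM in WT, were each close in both libraries. Hoxd4 lies in a locus of 6 genes in the files, so its split is uncertain.

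**Figure D3:**
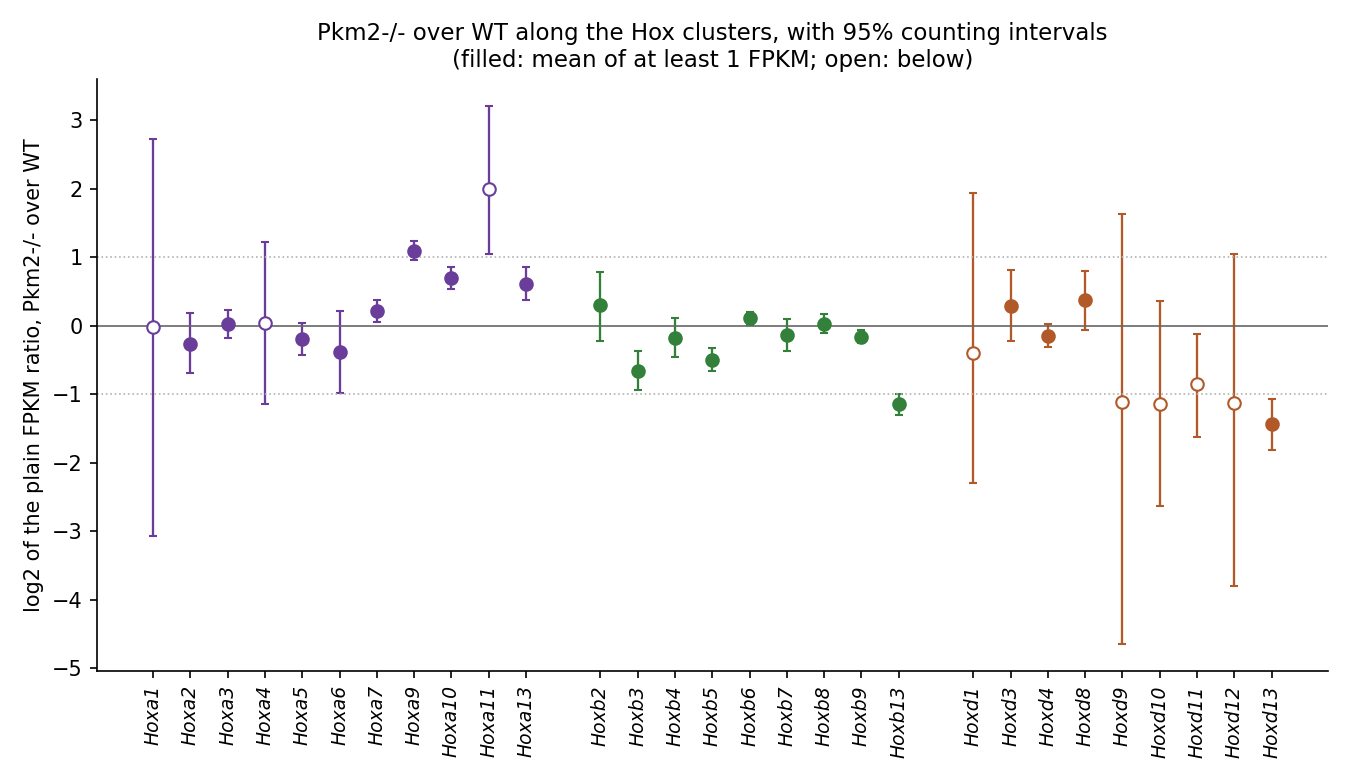
Log2 of the plain FPKM ratio of Pkm2-/- over WT for the 29 Hox genes with a value in both libraries, in cluster order, with 95% counting intervals as bars and dotted lines at 2-fold. Hoxa9 to Hoxa13 lie above 0, and Hoxb13 and Hoxd9 to Hoxd13 lie below, where the intervals of Hoxd9, Hoxd10 and Hoxd12 include 0. Of groups 1 to 8, Hoxb3 and Hoxb5 lie below 0 and Hoxa7 and Hoxb6 above it, with intervals that exclude 0.

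Genes beside the clusters were added after the values of the Hox genes had been seen. Within 100 kb of the cluster ends, Ttll6, a gene for a tubulin-modifying enzyme 28.9 kb beyond Hoxb13, stood at 2.95 FPKM in Pkm2-/- and 6.87 FPKM in WT, lower in Pkm2-/- as Hoxb13 was. Skap1, a T cell adaptor gene at the other end of the cluster, stood at 2.69 FPKM in Pkm2-/- and 0.621 FPKM in WT. Evx2, a homeobox gene next to Hoxd13, was at 0.0228 FPKM in Pkm2-/- and 0.125 FPKM in WT. Mtx2, a mitochondrial import gene 60.7 kb beyond Hoxd1 at the other end of that cluster, was at 30.6 FPKM in Pkm2-/- and 27.2 FPKM in WT. Evx1, beyond Hoxa13, was at 0.317 FPKM in Pkm2-/- and 0.376 FPKM in WT. Among 11 non-coding RNAs of the Hox clusters 6 had a mean of at least 1 FPKM. None was 2-fold apart and their median log2 ratio was -0.27, with Hoxb3os lowest, at 3.91 FPKM in Pkm2-/- and 7.05 FPKM in WT. Hoxaas3, the next most abundant after Hoxa11os, was at 7.29 FPKM in Pkm2-/- and 9.90 FPKM in WT. Hottip lies beyond Hoxa13 and is known in human cells to keep posterior HOXA genes active. It was at 3.01 FPKM in Pkm2-/- and 3.37 FPKM in WT. Its ratio, 1.12-fold lower in Pkm2-/-, had an interval of 0.882 to 1.41, so a difference was not detectable. Hottip lies in a locus of 3 genes in the files, so its split is uncertain. Hoxaas2 had the highest ratio, at 1.31 FPKM in Pkm2-/- and 1.21 FPKM in WT.

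The Cdx genes, which act along the whole intestine, were the most abundant of the 9 and were slightly higher in Pkm2-/-. Cdx1 (ENSMUSG00000024619, chromosome 18, 61018862 to 61036199, minus strand, 3 exons) stood at 204 FPKM in Pkm2-/- and 183 FPKM in WT, 1.12-fold higher in Pkm2-/- (interval 1.08 to 1.16). Cdx2 (ENSMUSG00000029646, chromosome 5, 147300805 to 147307270, minus strand, 3 exons) stood at 97.3 FPKM in Pkm2-/- and 78.6 FPKM in WT, 1.24-fold higher in Pkm2-/- (interval 1.18 to 1.295). These differences exceed counting error alone, and 58.8% of all genes tested also had a ratio above 0. The third Cdx gene, Cdx4, and the other ParaHox genes Gsx1 and Gsx2 had no entry. Pdx1, the factor of duodenum and pancreas, was at 0.0187 FPKM in Pkm2-/- and 0.102 FPKM in WT.

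The Gata genes were split by level. Gata6 (ENSMUSG00000005836, chromosome 18, 11052064 to 11085635, plus strand) stood at 22.5 FPKM in Pkm2-/- and 18.3 FPKM in WT, 1.23-fold higher in Pkm2-/- (interval 1.15 to 1.32). The files place it in 1 locus with 1010001N08Rik, so the split between them is uncertain. Gata4 (ENSMUSG00000021944, chromosome 14, 63198922 to 63271692, minus strand) stood at 0.269 FPKM in Pkm2-/- and 0.140 FPKM in WT, about 19 fragments in Pkm2-/- and 9 in WT, and its ratio of 1.93 had an interval of 0.806 to 4.69. A difference in Gata4 was not detectable at this depth. The level of Gata6 was 83.6 times that of Gata4 in Pkm2-/- and 131 times that of Gata4 in WT. Gata5, also a gut factor, was at 0.183 FPKM in Pkm2-/- and 0.743 FPKM in WT, and Gata1, a factor of red cells, had no entry. Of 10 further ParaHox and Gata family genes, 5 had an entry and 1 a mean of at least 1 FPKM, the Gata cofactor Zfpm1 at 1.54 FPKM in Pkm2-/- and 1.47 FPKM in WT (log2 ratio 0.04), in a locus of 87 genes in the files. This ratio turned below 0 when the libraries were scaled to equal medians or equal upper quartiles.

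On the log2 scale with 1 FPKM added, the median of the 3 group 13 genes was -1.05 and that of the 4 Cdx and Gata genes was 0.22, a difference of -1.27. The 4 include Gata4, which averaged less than 1 FPKM, and the median of Cdx1, Cdx2 and Gata6 alone was 0.29. The group 13 median is the value of Hoxd13, and Hoxa13 lay at 0.53. In each library the order of levels began with Cdx1 and Cdx2. Fabp6, Gata6, Hoxb13, Hoxa13 and Hoxd13 followed in Pkm2-/-, against Hoxb13, Gata6, Fabp6, Hoxa13 and Hoxd13 in WT. Gata4 and Hoxd10 were lowest in both libraries, with overlapping counting intervals in each, and those of Hoxa13 (4.52 to 5.87 FPKM) and Hoxd13 (3.98 to 5.23 FPKM) overlapped in WT.

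Fabp6 showed the largest difference of the 9 genes. Fabp6 (ENSMUSG00000020405, chromosome 11, 43596049 to 43601540, minus strand, 4 exons) stood at 41.6 FPKM in Pkm2-/- and 7.64 FPKM in WT, 5.45-fold higher in Pkm2-/- (interval 4.20 to 7.11, about 423 fragments in Pkm2-/- and 69 in WT). It was number 45 from the highest of the 12429 genes by log2 ratio. Its level was 3.88 times that of Hoxb13 in Pkm2-/- and 0.321 times that of Hoxb13 in WT.

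The Fabp6 promoter is shown because it holds the element through which Nr1h4 is known to act on this gene. The letters are the 250 bases before the RefSeq start site, chr11:43601563-43601812 on the minus strand of GRCm38.p6, printed 5′ to 3′. Capitals mark TTTAT on either strand and an inverted repeat of the kind the farnesoid X receptor binds, AGGTNA followed after 1 base by its reverse complement (N is any base).
Fabp6: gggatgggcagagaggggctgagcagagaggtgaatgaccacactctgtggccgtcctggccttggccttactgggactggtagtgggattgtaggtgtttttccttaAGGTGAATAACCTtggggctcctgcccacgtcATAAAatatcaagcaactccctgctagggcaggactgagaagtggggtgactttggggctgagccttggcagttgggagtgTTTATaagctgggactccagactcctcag
The inverted repeat begins 142 bases before the start site. Its pattern was written after these letters had been read, and it occurs in 6 of the 32851 windows (0.0183%). TTTAT begins 110 bases before the start site on the minus strand and 29 bases before it on the plus strand, and no GATAA was found.

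Other genes of ileal bile acid and vitamin uptake did not share the direction of Fabp6. Of 8 such genes 6 had a mean of at least 1 FPKM. Of these 3 were at least 2-fold lower in Pkm2-/-, none was at least 2-fold higher, and the median log2 ratio was -0.95. Slc10a2, the ileal bile acid importer, stood at 9.56 FPKM in Pkm2-/- and 53.2 FPKM in WT, the opposite direction to Fabp6. Slc51a and Slc51b, the subunits of the basolateral bile acid exporter, stood at 30.3 FPKM in Pkm2-/- and 57.2 FPKM in WT, and at 24.8 FPKM in Pkm2-/- and 24.7 FPKM in WT. Nr1h4 itself stood at 44.7 FPKM in Pkm2-/- and 65.8 FPKM in WT. Nr0b2 and Fgf15, which are also among the known targets of Nr1h4, were near or at 0 in both libraries. Nr0b2 was at 0.0391 FPKM in Pkm2-/- and 0.0422 FPKM in WT, and Fgf15 had no entry in Pkm2-/- and 0.0270 FPKM in WT. Cubn (0.463 FPKM in Pkm2-/- and 2.08 FPKM in WT) and Amn (4.68 FPKM in Pkm2-/- and 10.4 FPKM in WT), which form the vitamin B12 receptor of the ileum, were lower in Pkm2-/-.

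**Figure D4:**
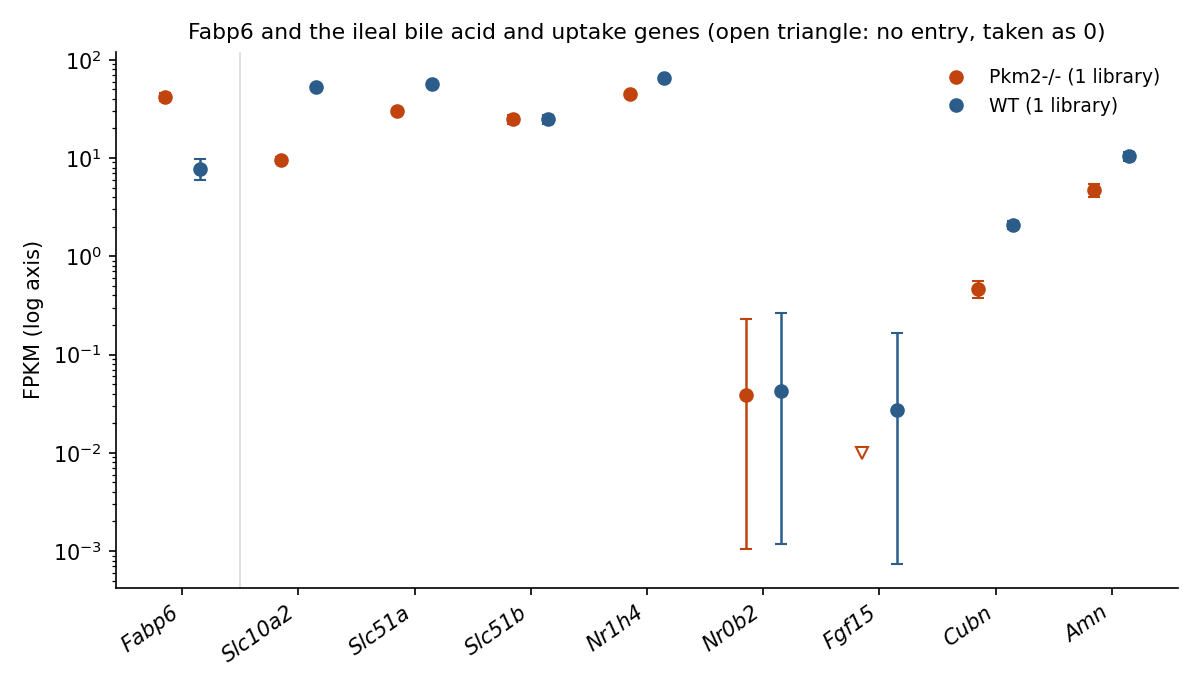
FPKM on a log axis of Fabp6 and 8 genes of ileal bile acid and vitamin uptake, with Pkm2-/- left and WT right, 1 library each, and 95% counting intervals as bars. Fabp6 is the gene that stands higher in Pkm2-/-, while Slc10a2, Slc51a, Nr1h4, Cubn and Amn stand lower.

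Genes of the proximal small intestine were mostly low and mostly lower in Pkm2-/-. Of 26 genes, 14 averaged 1 FPKM or more. Of these 4 were at least 2-fold lower, none was at least 2-fold higher, and the median log2 ratio was -0.40. Fabp2, the intestinal fatty acid binding protein, stood at 162 FPKM in Pkm2-/- and 139.8 FPKM in WT, and Slc5a1, the sodium-glucose transporter, at 42.1 FPKM in Pkm2-/- and 57.6 FPKM in WT. Lower genes were Rbp2, a retinol binding protein (0.908 FPKM in Pkm2-/- and 7.51 FPKM in WT), Enpep, a brush border peptidase (0.531 FPKM in Pkm2-/- and 4.83 FPKM in WT), Apob, the lipoprotein component (8.20 FPKM in Pkm2-/- and 22.2 FPKM in WT), and Slc15a1, the peptide transporter (0.678 FPKM in Pkm2-/- and 2.46 FPKM in WT). The highest ratio was that of Ada, adenosine deaminase, at 5.96 FPKM in Pkm2-/- and 3.92 FPKM in WT. Lct, the lactase of the jejunum, was at 0.0210 FPKM in Pkm2-/- and 0.0304 FPKM in WT, and Fabp1, the proximal fatty acid binding protein, at 0.233 FPKM in Pkm2-/- and 0.752 FPKM in WT.

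Colon genes were mostly lower in Pkm2-/- too, with 9 of 13 ratios below 0. Among these 13, which averaged 1 FPKM or more, 3 were at least 2-fold lower, none was at least 2-fold higher, and the median log2 ratio was -0.70. The lower 3 were Car4, a carbonic anhydrase (52.98 FPKM in Pkm2-/- and 275 FPKM in WT), Aqp8, a water channel (12.7 FPKM in Pkm2-/- and 67.3 FPKM in WT), and Cyp2c55, a cytochrome P450 of the colon (219.8 FPKM in Pkm2-/- and 884 FPKM in WT). Car1, another carbonic anhydrase and the most abundant, was at 2701 FPKM in Pkm2-/- and 4369 FPKM in WT, and Aqp4 had the highest ratio, at 39.5 FPKM in Pkm2-/- and 30.8 FPKM in WT. Below 0 on the log2 scale as well were Atp12a, a proton-potassium pump (6.72 FPKM in Pkm2-/- and 11.5 FPKM in WT), Insl5, a hormone of distal endocrine cells (15.5 FPKM in Pkm2-/- and 28.4 FPKM in WT), and Scnn1b, a sodium channel subunit (2.13 FPKM in Pkm2-/- and 4.07 FPKM in WT). Slc5a8, a butyrate transporter, was above 0, at 52.5 FPKM in Pkm2-/- and 45.3 FPKM in WT. These 4 were named after their values were seen. The labels do not give the stretch of colon taken, and a difference in sampled position between the preparations cannot be told apart from the genotype.

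The partners of the position factors showed smaller differences. With 1 FPKM added, none of 19 intestinal transcription factors was 2-fold apart, with 13 ratios above 0 and a median of 0.10. The most abundant were Elf3 (241 FPKM in Pkm2-/- and 260.4 FPKM in WT) and Hnf4a (190.3 FPKM in Pkm2-/- and 168 FPKM in WT), an epithelial differentiation factor and a nuclear receptor that works with Cdx2. Hnf4g had the highest ratio, at 17.7 FPKM in Pkm2-/- and 12.1 FPKM in WT, and Creb3l3, a lipid metabolism factor, the lowest, at 0.873 FPKM in Pkm2-/- and 1.83 FPKM in WT, a plain ratio 2.09-fold lower in Pkm2-/- (interval 1.44 to 3.17). Of the 18 pan-intestinal epithelial genes 1 was at least 2-fold lower, Mep1a, a brush border protease (46.6 FPKM in Pkm2-/- and 100.1 FPKM in WT). Their median was 0.03 and their mean -0.08, and the median turned below 0 with equal library medians or upper quartiles. Muc2, the mucus mucin, stood at 7504 FPKM in Pkm2-/- and 7418 FPKM in WT, and E-cadherin, Cdh1, had the highest ratio, at 232 FPKM in Pkm2-/- and 177 FPKM in WT.

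Cofactors that bind DNA beside Hox proteins, the TALE homeobox family, had a median of -0.05 and a mean of 0.00 over 5 of 9 genes, none 2-fold apart. Pbx2 was the most abundant (17.1 FPKM in Pkm2-/- and 14.7 FPKM in WT), Pknox1 had the highest ratio (6.47 FPKM in Pkm2-/- and 4.80 FPKM in WT) and Meis3 the lowest (3.82 FPKM in Pkm2-/- and 5.23 FPKM in WT). Chromatin regulators that keep Hox genes silent or active had a median of 0.26 over 14 genes, with 11 ratios above 0 and none 2-fold apart. Suz12 (22.8 FPKM in Pkm2-/- and 15.4 FPKM in WT) had the highest ratio, and Eed (26.5 FPKM in Pkm2-/- and 22.9 FPKM in WT) and Ezh2 (25.2 FPKM in Pkm2-/- and 20.7 FPKM in WT), also of the silencing complex PRC2, were the most abundant. Ezh1, its alternative catalytic subunit, had the lowest ratio, at 12.8 FPKM in Pkm2-/- and 15.4 FPKM in WT.

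**Figure D5:**
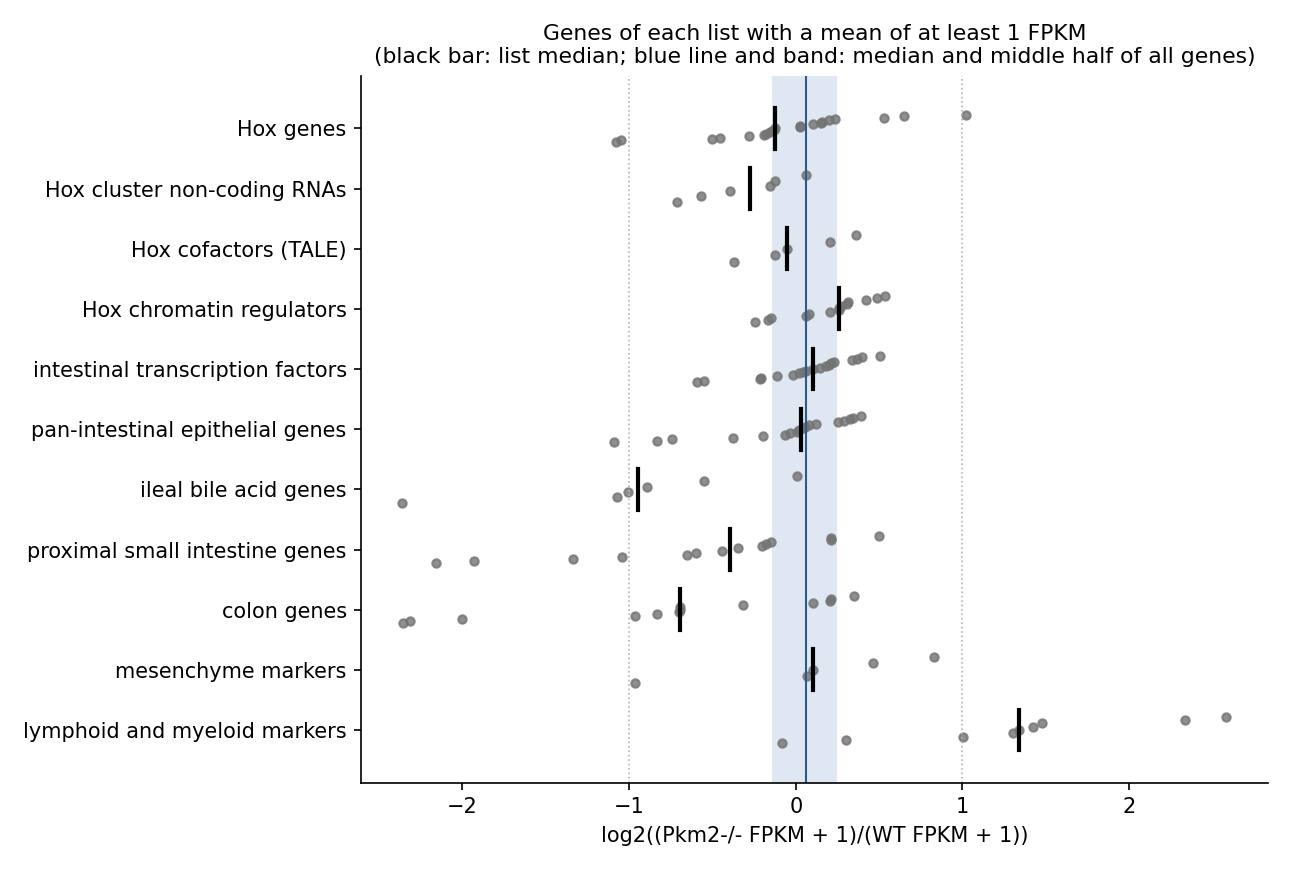
Log2 ratio of Pkm2-/- over WT with 1 FPKM added, for the genes of 11 lists with a mean of at least 1 FPKM, with black bars at list medians and the median and interquartile range of all genes in blue. The 2 Hox genes at the far left are Hoxb13 and Hoxd13, the 1 at the far right is Hoxa9, and the ileal, colon and small intestinal medians lie at -0.95, -0.70 and -0.40.

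Hox and Gata genes are also used outside the epithelium, so markers of other cells were measured in the same libraries. Lymphoid and myeloid markers were mostly higher in Pkm2-/-, where the 11 markers, all with an entry, summed to 94.3 FPKM, against 26.4 FPKM in WT, and 7 of 9 measured were at least 2-fold higher (median log2 ratio 1.34). Gzma, a cytotoxic granule protease, stood at 25.03 FPKM in Pkm2-/- and 3.34 FPKM in WT, Ptprc, the common leukocyte antigen, at 16.1 FPKM in Pkm2-/- and 5.94 FPKM in WT, Gzmb at 16.9 FPKM in Pkm2-/- and 2.55 FPKM in WT, Cd3e at 7.52 FPKM in Pkm2-/- and 2.05 FPKM in WT, and the monocyte marker Lyz2 at 2.74 FPKM in Pkm2-/- and 2.97 FPKM in WT. Their part in the higher values of Hoxa9 to Hoxa13 was not tested. Mesenchyme markers, of which 18 of 20 were listed and 5 measured, summed to 17.7 FPKM in Pkm2-/- and 16.2 FPKM in WT (median log2 ratio 0.10), with Lum and Foxl1 at 0 in both and Pdgfra without an entry in Pkm2-/- and at 0.00745 FPKM in WT. Vim, the largest part of both sums, stood at 9.76 FPKM in Pkm2-/- and 6.80 FPKM in WT. Thy1 stood at 2.70 FPKM in Pkm2-/- and 1.08 FPKM in WT, and Pdgfrb at 1.33 FPKM in Pkm2-/- and 1.17 FPKM in WT. Vim and Thy1 are also used by leukocytes, so the sum and the median do not measure mesenchyme alone. The fibroblast matrix genes Dcn (0.870 FPKM in Pkm2-/- and 2.65 FPKM in WT) and Col3a1 (0.239 FPKM in Pkm2-/- and 1.2002 FPKM in WT) were lower in Pkm2-/-. So were Col1a1, Col1a2, Col6a1 and Col6a2, each below 1 FPKM in both libraries. Of these, the counting interval of Col1a2 included 1. The part of mesenchyme cells in the lower values of Hoxb13, Hoxd11 and Hoxd13 was not tested.

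Enteric nerve and endothelial markers were each below 1 FPKM. Of 7 enteric nerve markers 5 were listed, summing to 1.26 FPKM in Pkm2-/- and 1.64 FPKM in WT, with Sox10 at 0 in both. The 4 endothelial markers summed to 0.397 FPKM in Pkm2-/- and 0.439 FPKM in WT. Red cell and mast cell markers summed to 20.1 FPKM in Pkm2-/- and 34.4 FPKM in WT, of which the growth factor receptor Kit, also used by other gut cells, made up 18.8 FPKM in Pkm2-/- and 18.4 FPKM in WT. The globins Hbb-bs (0.311 FPKM in Pkm2-/- and 8.99 FPKM in WT) and Hba-a1 (0.630 FPKM in Pkm2-/- and 6.77 FPKM in WT) were at least 2-fold lower in Pkm2-/- (list median log2 ratio -2.25). Both globins have near-identical copies and their values are uncertain. In bulk RNA such as this, fewer cells of a type and less RNA per cell cannot be told apart.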

How the data were processed

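The deposited values are FPKM, 1 per Ensembl gene. The files have no header, and the unit was read from how the values behave and from Cufflinks 2.2.1 and Cuffdiff (1.3.0, 2.2.1) being named in the submitters' processing notes. These notes also name TopHat2 2.1.1, Bowtie2 2.2.9 and build mm8. GENCODE M21 holds 99.4% of the 22384 gene IDs, and for 99.96% of those held the deposited locus overlaps the gene on GRCm38, the build of the coordinates here. FPKM scales by length and mapped total, so abundant transcripts move all others. Genes of the mitochondrial genome held 15.1% of the sum in Pkm2-/- and 16.8% in WT.

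Rows that share a symbol (34 symbols) were summed, and a gene without an entry was taken as 0. The worth of 1 fragment was the modal FPKM times kb of low genes with 1 transcript of 1.5 to 4 kb (0.0472 in Pkm2-/-, 0.0533 in WT). It and the longest transcript gave approximate fragments and Clopper-Pearson (fold) or Poisson (level) intervals at 95%. A fold is the plain FPKM ratio. Log2 ratios have 1 FPKM added, which understates low genes, and calls need a mean of at least 1 FPKM. The method was tested on simulated counts with a single transcript length per gene and no shared loci. That test therefore does not cover errors from several transcripts or from the split of fragments in a shared locus.

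The 9 members and 16 gene lists were chosen with earlier results of these data known. Named were all members, the 10 highest other Hox genes, and of each list the 2 highest, both ends of the ratios and up to 4 genes at least 2-fold apart. Other genes were named after their values were seen, and some genes are not reported here. Promoters came from the RefSeq table. Python 3.11.15, pandas 2.3.3 and scipy 1.17.1 were used.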

Additional observations from a re-analysis of the deposited data

How the results depend on the processing

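No paired analysis was possible because each genotype had 1 library, and no library could be left out. Over 5 alternatives (a pseudocount of 0.1 or 5 FPKM, equal library medians, equal upper quartiles, and a common sum without mitochondrial genes) all 45 values of the 9 members kept their sign, and 35 stayed within the counting interval. A change of pseudocount cannot turn the sign of a ratio. The scalings divided the Pkm2-/- values by 1.06, 1.05 and 0.967, too little to turn the sign of any member. The kept signs are therefore no check of the differences. With a pseudocount of 5 the log2 ratio was -0.87 for Hoxb13, -0.52 for Hoxd13 and for the group 13 median, and 1.88 for Fabp6, the difference between the group 13 and the Cdx and Gata medians was -0.72, and 0 members were at least 2-fold lower. With a pseudocount of 0.1 Hoxd13 was at -1.38, Hoxd10 at -0.81 and Gata4 at 0.62. Cdx1 was at 0.077 and Cdx2 at 0.22 with equal medians, and at 0.10 and 0.24 with equal upper quartiles. Over all genes, 272 were at least 2-fold higher and 361 lower in Pkm2-/- with a pseudocount of 0.1, 85 and 124 with 5, and 111 and 154 above a minimum mean of 5 FPKM, where 1 member was lower. That filter left Kit alone of the red and mast cell list, at 0.033. Of 110 values of the list medians 100 kept their sign. The other 10 were of the TALE, Hox, red and mast cell, mesenchyme, ParaHox and Gata, and pan-intestinal lists, all but the red and mast cell list with main medians near 0. Depth limits Hoxd10, Gata4, Hoxd9 and Hoxd12.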
